A study of Mus musculus with 64 samples.

Results

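The iron-handling genes examined here were 10 genes chosen by symbol, out of 23338 listed in each count file: the hepcidin genes Hamp and Hamp2, the ligand Bmp6, the hepcidin regulators Hfe, Hfe2 (hemojuvelin), Tfr2 and Tmprss6, the iron exporter Slc40a1 (ferroportin), transferrin (Trf) and the ferritin heavy chain (Fth1). All 10 were found. RNA from 64 untreated mouse samples of strain C57BL/6 (C57BL/6 J in the study's methods) had been sequenced. They were 12 eight-cell embryos (6 male, 6 female), 4 embryonic stem (ES) cell lines grown in 2i medium (2 male, 2 female), 24 late-gestation fetal livers and 24 livers of mice aged 15 to 20 weeks, each liver group with 12 males and 12 females. Adult animals ate standard chow, the ES data come from few lines, and which fetuses were littermates is not given in the sources used here. P-values measure the spread between these samples.

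The liver sets the body's iron supply through hepcidin, a small peptide hormone that hepatocytes secrete. Hepcidin binds ferroportin, the only known cellular iron exporter, and has it degraded, so that less iron leaves gut cells and macrophages. Its transcription is driven by BMP6, a ligand made mainly by liver endothelial cells, which signals through SMAD proteins with hemojuvelin as co-receptor. HFE and TFR2 relate the amount of iron-loaded transferrin to this signal, the protease TMPRSS6 removes hemojuvelin, and inflammation adds a second input through STAT3. The mouse carries a pair of hepcidin genes, Hamp and Hamp2.

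The 2 genes lie side by side on the minus strand of chromosome 7 (GRCm38), Hamp at 30942368-30944029 and Hamp2 at 30922372-30924181. Their promoters are printed because they show how near the copies are and where they part. Each is the run of 250 bases before the RefSeq start (GRCm38.p6), at chr7:30944030-30944279 for Hamp and chr7:30924182-30924431 for Hamp2. Capitals mark the core of the BMP response element, GGCGCC, with the aligned bases of Hamp2, and the STAT motif TTCNNNGAA.
Hamp: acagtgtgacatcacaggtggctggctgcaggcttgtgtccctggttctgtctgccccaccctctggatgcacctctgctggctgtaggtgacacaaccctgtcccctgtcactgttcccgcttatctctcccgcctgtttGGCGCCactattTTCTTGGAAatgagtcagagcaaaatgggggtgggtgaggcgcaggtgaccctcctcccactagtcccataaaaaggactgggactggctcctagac
Hamp2: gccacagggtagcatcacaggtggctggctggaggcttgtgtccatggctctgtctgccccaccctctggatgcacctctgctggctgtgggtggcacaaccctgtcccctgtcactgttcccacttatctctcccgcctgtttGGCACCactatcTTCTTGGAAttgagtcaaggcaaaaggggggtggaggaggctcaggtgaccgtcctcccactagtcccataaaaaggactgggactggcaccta
The promoters were identical at 227 of 247 aligned bases (91.9%). One of the 20 substitutions, G145A, counted from 1 at the first printed base of Hamp and naming the Hamp base first, falls inside the GGCGCC of Hamp. The search, on both strands and with no overlap between the motifs, found GGCGCC once in Hamp, 109 bases before the start, and not in Hamp2. TTCNNNGAA was found once in each, 97 bases before the Hamp start and 94 before that of Hamp2. Of 32851 promoter windows of this length, 9.59% held GGCGCC and 7.02% held TTCNNNGAA. Promoters of Bmp6, Hfe, Tfr2 and Fth1 held neither, and windows for Hfe2, Tmprss6, Slc40a1 and Trf were not used here. A match of letters is not a binding site, and no match says nothing of the factor.

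The mature hormone is encoded at the end of exon 3, and the last 78 coding bases are shown because this is where reads can tell the copies apart. They lie at chr7:30942477-30942554 in Hamp and chr7:30922508-30922585 in Hamp2 (GENCODE M21, GRCm38), and capitals mark the 14 differing bases.
Hamp: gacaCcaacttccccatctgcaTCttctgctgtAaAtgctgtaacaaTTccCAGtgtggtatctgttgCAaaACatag
Hamp2: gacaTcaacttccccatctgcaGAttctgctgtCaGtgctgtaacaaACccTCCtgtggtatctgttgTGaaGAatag
Over the whole coding sequence of 252 bases the copies were identical at 236 bases (93.7%), with a longest identical run of 80 bases. Reads aligning at several places were not counted, so the counts of Hamp and Hamp2 rest on reads that tell them apart, and both levels are uncertain to that extent.

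Read totals on genes ran from 1567583 to 10386931. Adult livers were the shallowest, from 1567583 to 4757610 reads, and 3 reads, taken as the smallest level that can be shown, stood for 0.289 to 1.91 CPM, the reads of a gene scaled to its library's total, across the samples. Levels below are CPM scaled with TMM factors over all 64 samples, and differences are log2 ratios from edgeR's quasi-likelihood test with Benjamini-Hochberg adjustment over all genes tested. Male and female livers were called different at an adjusted p under 0.1 with an absolute log2 above 0.5, stages with an absolute log2 above 1. The liver libraries carried their tissue's markers. The summed level of 10 hepatocyte markers was 69692 to 87807 CPM in adult and 26696 to 35695 CPM in fetal livers, against 13.5 to 21.7 CPM in ES lines, where 8 pluripotency markers summed to 2857 to 3509 CPM. Shares of reads and alignments differed by sex, and the cause was not tested. The share of alignments at several places was 42.2% to 61.1% in adult males and 32.7% to 43.2% in adult females, which barely overlap, and the share of reads outside genes was 39.9% to 49.0% in fetal males and 34.1% to 38.1% in fetal females, with no overlap. Libraries were sequenced 12 to a lane. Which livers shared a lane is not given in the sources used here, so whether lane followed sex is not known and lane was not tested.

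**Figure D1:**
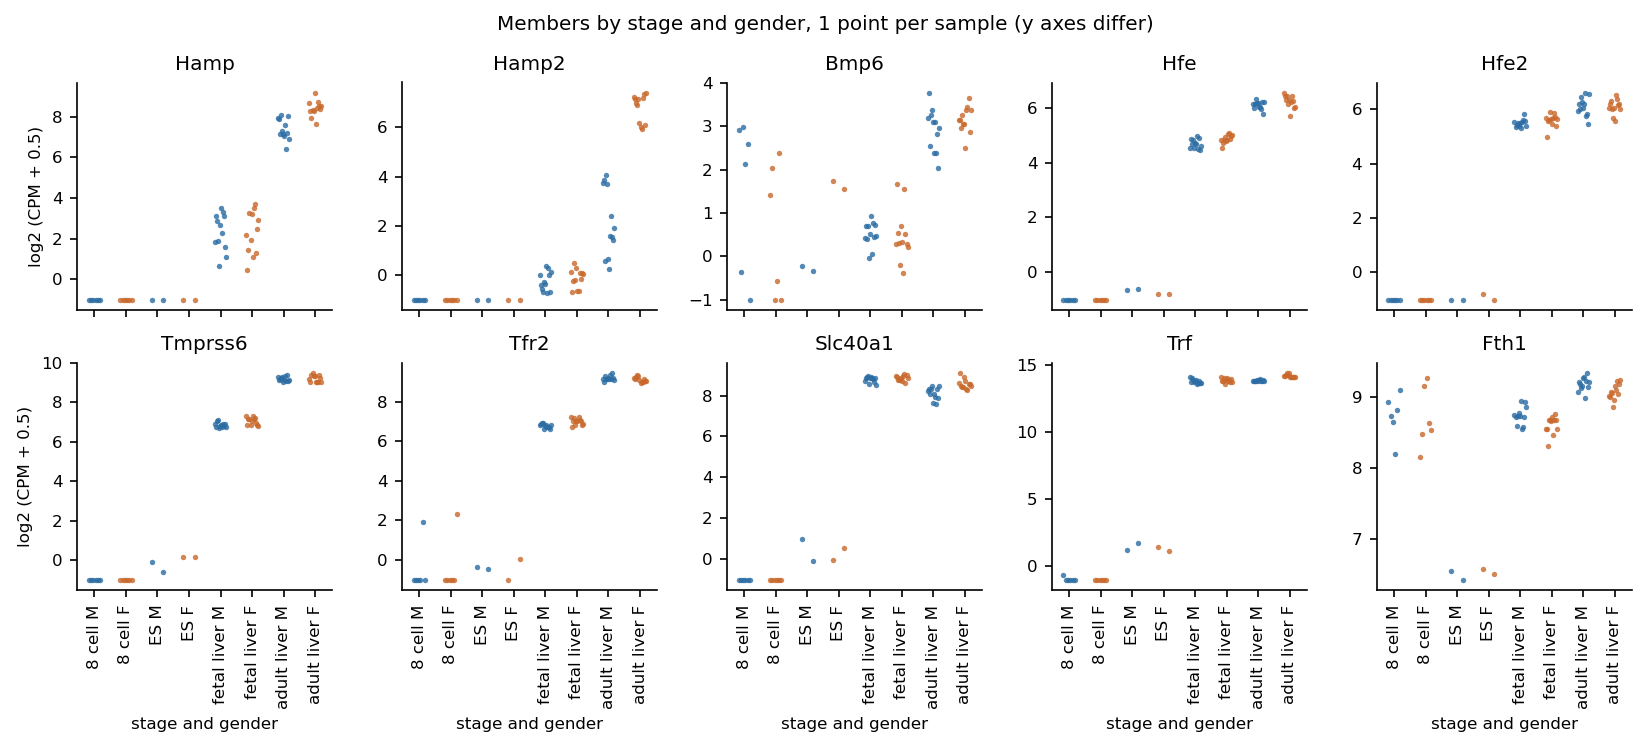
Level of each of the 10 genes, as log2 (CPM + 0.5), in every sample by stage and gender (M male, F female; 1 point per sample, y axes differ). Most genes sit at or near 0 reads in embryos and ES lines and are higher in liver, though Hamp, Hamp2 and Bmp6 stay low in fetal liver. Fth1 is high throughout, and adult males and females do not overlap for Hamp2 and Trf.

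Across the stages, hepcidin and its regulators were liver genes, whereas ferritin was measured everywhere. No read of Hamp or Hamp2 was counted in any of the 12 embryos or 4 ES lines. Hfe, Hfe2, Tmprss6 and Slc40a1 were also without a read in all 12 embryos. In ES lines Hfe had 6 reads in all, Hfe2 had 1 read in a single female line, Tfr2 had 14, Tmprss6 24, Slc40a1 45 and Trf 116. Fetal livers held 27.2 ± 3.48 CPM of Hfe, 46.6 ± 6.23 of Hfe2, 124 ± 16.2 of Tmprss6 and 118 ± 14.5 of Tfr2 (SD, n = 24). Slc40a1 was at 453 ± 43.1 CPM and Trf, the carrier of iron in blood, at 14792 ± 1506 CPM (SD, n = 24). Every fetal liver lay above every ES line for these 6 genes.

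Between ES lines and fetal liver, 8 of the 9 members tested were called higher in fetal liver, against 32.9% of all 14858 genes. For Trf the log2 ratio was 12.67 (SE 0.177, edgeR adjusted p = 3.77e-33) and for Slc40a1 8.99 (SE 0.174, edgeR adjusted p = 1.82e-29). Hamp, with no ES read, was at least 20.1-fold higher in fetal liver, from its mean of 6.11 CPM before TMM scaling against the level of 3 reads in 1 ES library. Hamp2 was not tested, as its 1 to 6 reads per fetal liver left it at or near that level. The call of each of the 8 held without any 1 of the 4 ES lines.

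Bmp6 and Fth1 departed from that pattern. Bmp6 was at 2.44 and 2.85 CPM in the female ES lines, at 0.291 and 0.361 CPM in the male lines, and at 0.983 ± 0.548 CPM in fetal liver (SD, n = 24). Its log2 ratio of fetal liver to ES was -0.48 (SE 0.400, edgeR adjusted p = 0.253). In embryos Bmp6 ran from 0 to 7.35 CPM in males and from 0 to 4.72 CPM in females, with overlapping groups. The male and female ES lines did not overlap, but with 2 lines each an exact test cannot pass 0.05 and none was made. Fth1, which forms the iron-storing ferritin shell, was at 91.6 ± 4.28 CPM in ES lines (SD, n = 4) and 407 ± 39.3 CPM in fetal liver (SD, n = 24), a log2 ratio of 2.102 (SE 0.0889, edgeR adjusted p = 2.22e-20). In the embryos it was at 431 ± 105 CPM (SD, n = 12). Embryo libraries were made with an amplified single-cell protocol, so that stage and protocol cannot be told apart and no test against embryos was made. Fth1 has many processed copies in the genome, which makes its count uncertain.

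Among the 10 members, the largest differences between fetal and adult liver were in the hepcidin genes themselves, followed by the ligand and the hepatocyte regulators. Of these members, 6 were called higher in adult liver, against 19.7% of 13026 genes tested, and none lower, against 23.7%. Of 10 hepatocyte markers, 8 were called higher and none lower, with a median log2 of 1.93 against 1.94 for the members. How far the members rose with hepatocyte genes at large was not tested. In fetal liver Hamp ranged from 0.884 to 12.5 CPM with a median of 4.71, and in adult liver from 85.5 to 575 CPM with a median of 253. No adult liver overlapped any fetal liver. The log2 ratio of adult to fetal liver was 5.63 (SE 0.225, edgeR adjusted p = 1.70e-27), a fold of 49.5. In a bulk sample more cells expressing a gene and more RNA per cell cannot be told apart, and this holds for every difference below. Between the liver stages, age and any batch of collection or sequencing cannot be told apart either. Read totals on genes were 1567583 to 4757610 in adult and 5145371 to 8499603 in fetal livers. Shares of alignments at several places were 32.7% to 61.1% and 23.2% to 28.5%.

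Hamp2 was at 0.108 to 0.886 CPM in fetal liver, from 1 to 6 reads each, and at 0.676 to 168 CPM in adult liver, with a log2 ratio of 7.24 (SE 0.319, edgeR adjusted p = 5.32e-26). Only 1 adult liver, male 7 at 0.676 CPM from 1 read, lay within the fetal range of Hamp2. Males 3 and 6, at 0.970 and 1.07 CPM from 2 reads each, were also below the level of 3 reads and cannot be placed above that range. The sexes differed in this: the adult mean was 16.4 times the fetal mean in males (6.10 against 0.371 CPM) and 266 times in females (118 against 0.445 CPM). Bmp6 was at 0.262 to 2.65 CPM in fetal and 3.58 to 13.1 CPM in adult liver, with no overlap and a log2 ratio of 3.09 (SE 0.156, edgeR adjusted p = 1.09e-25).

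Tfr2 and Tmprss6, regulators of hepcidin with opposite effects, rose by nearly the same amount. Tfr2, the liver form of the transferrin receptor, went from 97.8 to 147 CPM in fetal liver to 487 to 694 CPM in adult liver, a log2 ratio of 2.38 (SE 0.0426, edgeR adjusted p = 3.01e-47). Tmprss6, the inhibitor, went from 103 to 157 CPM to 517 to 718 CPM, a log2 ratio of 2.36 (SE 0.0438, edgeR adjusted p = 1.38e-46). Neither gene had a fetal liver within the adult range. Hfe was at 21.5 to 33.5 CPM in fetal and 51.5 to 92.9 CPM in adult liver, a log2 ratio of 1.51 (SE 0.0482, edgeR adjusted p = 4.19e-35), also with no overlap.

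The remaining 4 members differed less between the stages, and the size of their log2 ratios, and for Trf the sign, depended on the scaling. With TMM factors, the log2 ratio of adult to fetal liver was 0.70 for Hfe2, 0.57 for Fth1, 0.30 for Trf and -0.35 for Slc40a1, none past the fold threshold. Library totals in place of TMM factors moved the median log2 of all genes by -0.57. Under library totals, Fth1 was at 0.00 (edgeR adjusted p = 0.993), Hfe2 at 0.13 (edgeR adjusted p = 0.0690), Slc40a1 at -0.92 and Hfe at 0.94, which is then no longer called, and Trf changed sign to -0.27 (edgeR adjusted p = 3.27e-08). Hamp at 5.06, Hamp2 at 6.67, Bmp6 at 2.52, Tfr2 at 1.81 and Tmprss6 at 1.80 stayed past the threshold.

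**Figure D2:**
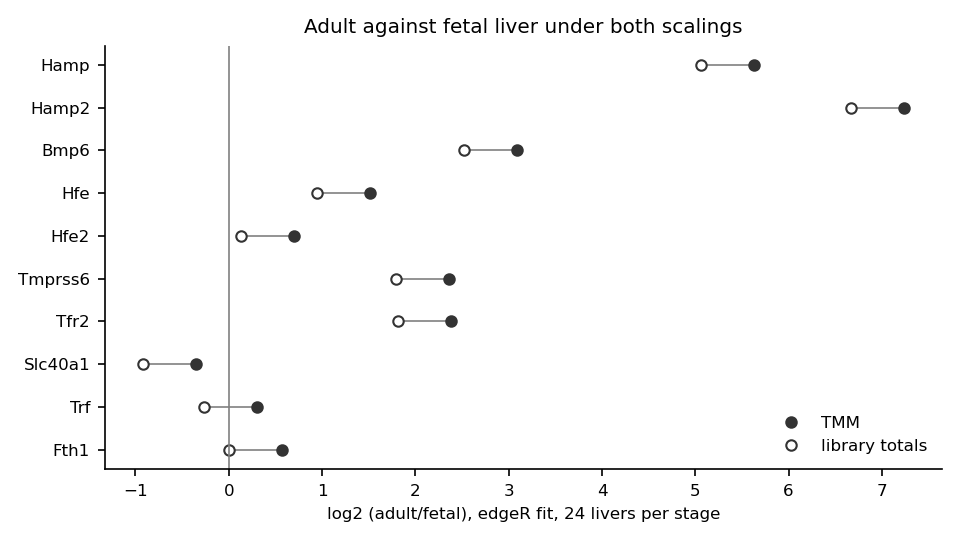
Log2 (adult/fetal) of the 10 genes from the edgeR fit, with 24 livers per stage, scaled by TMM factors (filled points) and by library totals (open points). Scaling by totals shifts every gene by about -0.57, which leaves Hamp, Hamp2, Bmp6, Tfr2 and Tmprss6 above a log2 of 1, sets Fth1 at 0.00 and turns Trf to -0.27.

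Other genes of iron metabolism placed these stages. Of 61 further iron, heme, BMP and acute phase genes tested, 22 were called higher and 9 lower in adult liver, beside the 19.7% and 23.7% of all genes given above. The acute phase genes Orm1 (log2 ratio 9.09), Orm2 (9.15), Saa1 (8.41) and Saa2 (7.40) had the largest increases among those called, with several fetal livers at 0 reads for all but Orm1. Atoh8, a BMP target, was at 0.341 to 1.53 CPM in fetal and 8.11 to 44.2 CPM in adult liver, with no overlap. Other BMP targets did not move alike: the log2 ratio of adult to fetal liver was 1.24 for Smad7 and 0.33 for Smad6. Id1 was lower in adult liver, at -0.49 (edgeR adjusted p = 0.00124). Fam132b (erythroferrone, the erythroid suppressor of hepcidin) was at 5.41 to 12.7 CPM in fetal liver and had no read in any of the 24 adult livers. Tfrc, which takes up transferrin iron and is high in red cell precursors, fell from 1141 to 1906 CPM in fetal liver to 32.4 to 134 CPM in adult liver, a log2 ratio of -4.49 (SE 0.108, edgeR adjusted p = 2.66e-38). The mitochondrial iron importer Slc25a37 (mitoferrin-1) fell from 886 to 1467 CPM to 18.98 to 58.4 CPM, a log2 ratio of -5.05, and Lcn2, a siderophore-binding protein, by 5.75 on the log2 scale. The summed level of 11 erythroid markers was 4392 to 6618 CPM in fetal and 19.3 to 251 CPM in adult livers. In the same way 7 granulocyte markers summed to 1643 to 3479 CPM in fetal livers and at most 8.60 CPM in adult livers, and the part of these cells in the differences was not tested. The 4 globin genes of the erythroid list are no guide, being at most 0.708 CPM in the fetal livers too.

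Per kilobase of exon, Trf stood first in both stages. In adult liver Trf was at 5120 ± 742 CPM per kb, followed by Hamp at 642 ± 288, Tmprss6 at 176 ± 18.1, Fth1 at 161 ± 12.9, Tfr2 at 131 ± 11.6 and Hamp2 at 107 ± 110 (SD, n = 24). Slc40a1 at 36.9 ± 9.05 and Hfe2 at 34.4 ± 7.04 CPM per kb lay within their spread, above Hfe at 20.1 ± 2.80 and Bmp6 at 2.05 ± 0.591. These ranks pool the sexes, and for Hamp2 they hold in neither: it was at 203 ± 69.95 CPM per kb in females, above Tmprss6 at 177 ± 21.8, and at 10.5 ± 10.1 in males, below Hfe at 19.1 ± 1.93 (SD, n = 12). In fetal liver Hamp, at 13.5 ± 8.61 CPM per kb, ranked below Fth1 (117 ± 11.3), Slc40a1 (50.3 ± 4.79), Tmprss6 (37.0 ± 4.83), Tfr2 (27.3 ± 3.33) and Hfe2 (22.96 ± 3.07). Lengths are all exonic bases of a gene in GENCODE M21, from 410 for Hamp to 9000 for Slc40a1, so a gene with rarely used exons is understated. The ranks, such as that of Fth1 with 3469 bases, depend on these lengths, and other lengths were not tried. Trf shares 2108 exonic bases with a same-strand model, Gm20425, while Hamp2 shares 89 and Bmp6 224 with opposite-strand models, and the strand setting of the counting is not given in the sources used here.

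Within adult liver, both hepcidin genes were lower in males, as were ferroportin and transferrin, while the regulators of hepcidin differed little. Of the 10 members, 2 (Hamp and Hamp2) were called, against 9.49% of the 10372 genes tested, and both were lower in males, against 6.48% called lower. Male livers held 85.5 to 269 CPM of Hamp with a median of 153, and female livers 201 to 575 CPM with a median of 340. The groups overlapped, with 8 of 12 males below every female and 10 of 12 females above every male. The log2 ratio of male to female was -1.01 (SE 0.187, edgeR adjusted p = 0.000274), so that females held about 1.98 times the male mean.

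Hamp2 separated the sexes completely. In females it ranged from 61.0 to 168 CPM with a median of 133, and in males from 0.676 to 16.3 CPM with a median of 2.86. The log2 ratio of male to female was -4.23 (SE 0.337, edgeR adjusted p = 9.58e-10), a fold of 18.7. Males were uneven: livers 1, 2, 4 and 5 were at 12.9, 13.8, 16.3 and 12.3 CPM, and the other 8 at 0.676 to 4.75 CPM, from as little as 1 read. Those 4 livers also had the lowest shares of alignments at several places among the males, from 42.2% to 47.8%, against 48.02% to 61.1% in the others. Females were uneven too, with livers 18, 19, 20 and 23 at 71.3, 64.1, 61.0 and 68.4 CPM and the other 8 at 119.7 to 168 CPM. Hamp exceeded Hamp2 in every adult liver, by 12.9 to 192 times in males and 1.90 to 8.06 times in females. The male ratios of 131, 143 and 192, in livers 6, 3 and 7, rest on 2, 2 and 1 reads of Hamp2, so their size is uncertain.

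**Figure D3:**
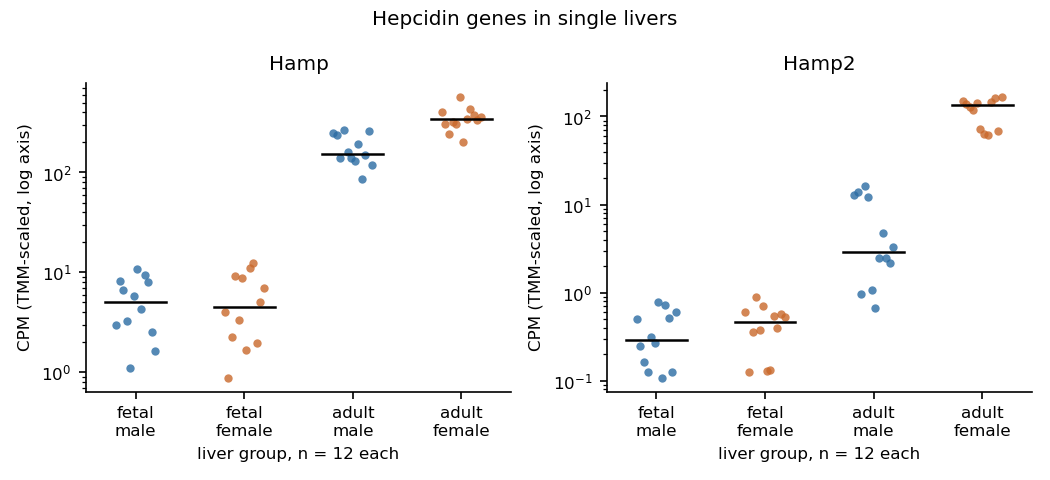
CPM of Hamp and Hamp2 (log axis) in each fetal and adult liver, 12 per group, with lines at the medians. Adult males and females overlap for Hamp, with medians of 153 and 340 CPM, and do not overlap for Hamp2, with medians of 2.86 and 133 CPM.

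The 2 calls were tested with the share of alignments at several places as a covariate, an alternative chosen after seeing the data. Hamp was then at -0.73 and no longer called (edgeR adjusted p = 0.233), while Hamp2 stayed called at -3.41 (edgeR adjusted p = 0.000226). The shares of males and females barely overlapped, so that share and sex cannot be fully told apart. Whether the share itself follows from sex was not tested, so a call lost here cannot be assigned to technique.

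Ferroportin and transferrin passed the adjusted p with lower levels in males, as 17.7% of all genes did, but not the fold threshold. Slc40a1 ranged from 191 to 356 CPM in males and 306 to 549 CPM in females, with medians of 283 and 365 CPM and overlapping groups. Its log2 ratio was -0.48 (SE 0.0987, edgeR adjusted p = 0.000530), and without the 7 adult livers under 2000000 reads it was -0.53 and past both thresholds. Macrophages, which recycle iron from red cells, are rich in ferroportin. Of 11 macrophage markers, 7 were called lower in males, against 6.48% of all genes, and none higher. Their summed level was 499 to 831 CPM in males and 667 to 1416 CPM in females, Vsig4 (log2 ratio -0.90) and Cd68 (-0.77) being among those called, and their part in the Slc40a1 difference was not tested. Trf was at 14321 to 16514 CPM in males and 17451 to 21964 CPM in females, with no overlap and a log2 ratio of -0.38 (SE 0.0469, edgeR adjusted p = 1.38e-07). Its female mean was 1.28 times the male mean. Apoa2 (1.39 times) and Ahsg (1.47 times), also liver markers, did not overlap either. Of 10 hepatocyte markers, 2 passed the adjusted p with lower levels in males and 1 with higher. How many of all genes separate the sexes without overlap was not counted.

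The remaining 6 members stood within 0.23 of 0 on the log2 scale. Bmp6, at 3.58 to 13.1 CPM in males and 5.15 to 12.01 CPM in females, had a log2 ratio of -0.23 (95% interval -0.54 to 0.09, edgeR adjusted p = 0.325). It rests on 5 to 37 reads per liver. Hfe had a log2 ratio of -0.17 (edgeR adjusted p = 0.0728), which passed the adjusted p alone, and not with library totals (edgeR adjusted p = 0.102). Hfe2, Tmprss6, Tfr2 and Fth1 had log2 ratios of 0.01, -0.03, 0.04 and 0.09, and the widest of their 95% intervals, that of Hfe2, ran from -0.20 to 0.23.

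**Figure D4:**
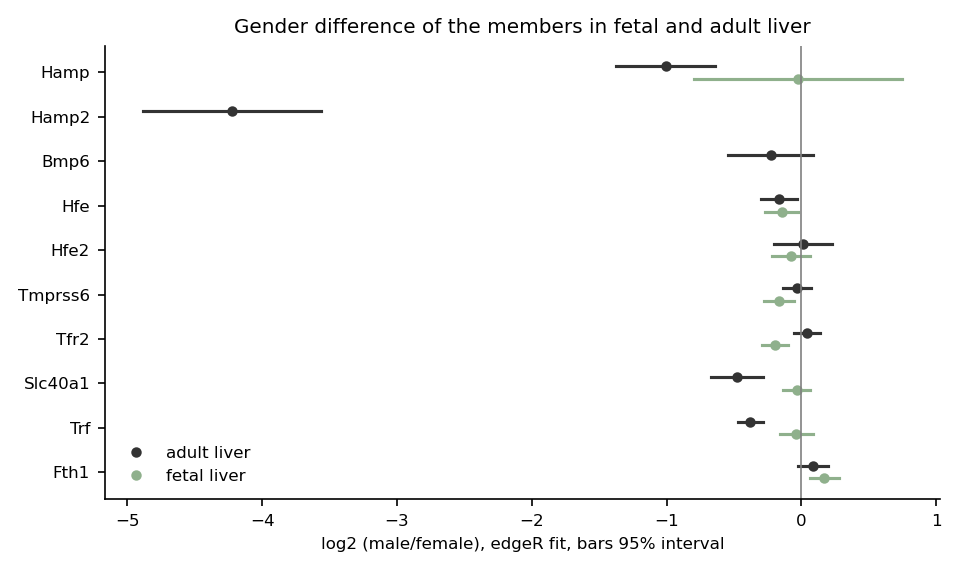
Log2 (male/female) of the 10 genes in adult liver (dark) and fetal liver (green) from the edgeR fit, with 95% intervals and 12 livers per sex at each stage; Hamp2 and Bmp6 were not tested in fetal liver. In adult liver Hamp2 at -4.23 and Hamp at -1.01 lie apart from the rest, and Slc40a1 and Trf lie below 0.

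Of 15 BMP-SMAD genes tested, 3 were called, all lower in males, against 6.48% of all genes called lower. Id1, the transcriptional regulator that BMP signals induce, was at 2.42 to 7.30 CPM in males and 3.03 to 26.2 CPM in females, with a log2 ratio of -1.02 (SE 0.270, edgeR adjusted p = 0.00544). Smad6, an inhibitory SMAD, was at -0.56 (SE 0.133, edgeR adjusted p = 0.00203) and Atoh8 at -0.55 (SE 0.195, edgeR adjusted p = 0.0372). Male and female livers overlapped for each of them, and none stayed called with the share of alignments at several places as a covariate. Smad7, the other inhibitory SMAD, was at -0.30 (edgeR adjusted p = 0.205), and the ligand Bmp2 at -0.33 (edgeR adjusted p = 0.0837), short of the fold threshold. The median log2 ratio of the 15 genes was -0.06, against -0.000944 over all genes tested. Of 8 endothelial markers, 7 passed the adjusted p with lower levels in males, against 17.7% of all genes, only Lyve1 (-0.58) passing the fold threshold too, and their summed level was 535 to 646 CPM in males and 621 to 764 CPM in females.

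**Figure D5:**
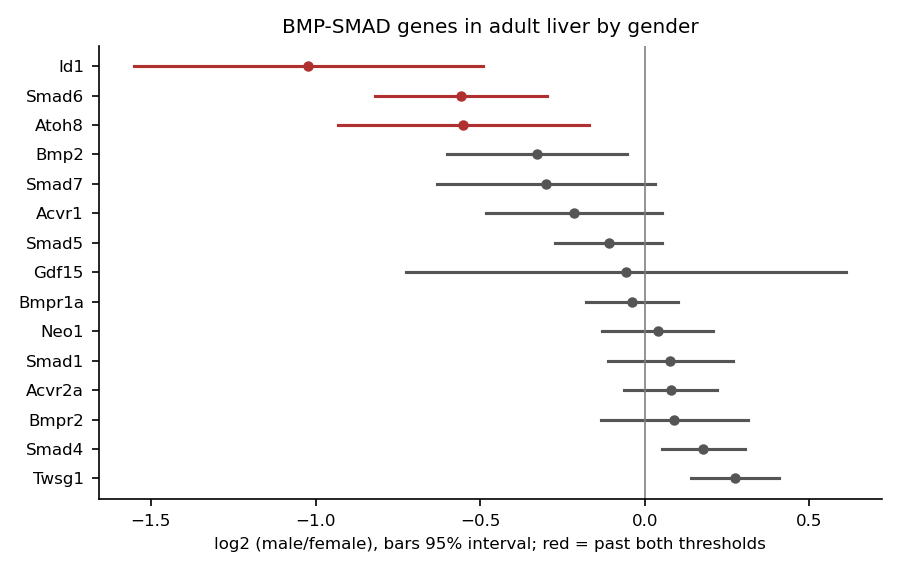
Log2 (male/female) of the 15 BMP-SMAD genes tested in adult liver, with 95% intervals from the edgeR fit and 12 livers per sex. Id1 at -1.02, Smad6 at -0.56 and Atoh8 at -0.55 pass both thresholds (red), and the other 12 do not.

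Genes of iron uptake moved in both directions. Scara5, a ferritin receptor, was at 7.65 to 48.2 CPM in males and 0 to 1.84 CPM in females, with no overlap and a log2 ratio of 5.05 (SE 0.567, edgeR adjusted p = 2.07e-07), whose size depends on the female livers without reads. Slc11a2 (DMT1, an iron importer) was 0.58 higher in males (edgeR adjusted p = 3.49e-05), and Steap2, a metalloreductase, lower at -1.19 (edgeR adjusted p = 2.61e-07). Steap4, of the same family, was at 0.62 (edgeR adjusted p = 0.0845), a call lost without male liver 11, at 0.36 (edgeR adjusted p = 0.178). Abcg2, a transporter of porphyrins, was higher in males at 1.37 (edgeR adjusted p = 9.25e-14). No gene of the iron storage, ferroxidase and IRP lists was called. Of the erythroid markers only Alas2, the erythroid enzyme of heme synthesis, was tested, and it was higher in males, at 184 to 242 CPM against 13.3 to 50.6 CPM (log2 ratio 2.79, edgeR adjusted p = 4.67e-18). It made up most of the erythroid sum of 194 to 251 CPM in males, whereas Slc4a1 was at most 2.15 CPM in any male.

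The acute phase genes, which answer to the same STAT3 input as hepcidin, were uneven among males. Saa1 was called higher in males (log2 ratio 1.36, edgeR adjusted p = 0.0341), as were Socs3 (1.01, edgeR adjusted p = 0.0637) and Cebpb (0.91, edgeR adjusted p = 0.00666), and Orm2 was lower (-1.21, edgeR adjusted p = 0.0128). Without the 7 livers under 2000000 reads, the calls of Saa1 (edgeR adjusted p = 0.164), Socs3 (edgeR adjusted p = 0.227), Steap4 (edgeR adjusted p = 0.323) and Atoh8 (edgeR adjusted p = 0.103) were lost. One liver, male 11, held 282 CPM of Saa1 against 14.95 to 88.9 CPM in the other males, and 62.4 CPM of Orm2 against 3.52 to 13.6 CPM. Its Hamp was 259 CPM, the second highest male value, and its Bmp6 was 3.58 CPM, the lowest. Without it Hamp was at -1.07 (edgeR adjusted p = 0.000141) and Hamp2 at -4.17 (edgeR adjusted p = 3.86e-09). Leaving it out took Saa1 to 0.79 (edgeR adjusted p = 0.0531) and Orm2 to -1.69.

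In fetal liver no member was called different between the sexes, against 4.64% of 12930 genes. The adjusted p without the fold was passed by 4 of the 8 members tested, against 37.2% of all genes: Tfr2 at -0.19 (edgeR adjusted p = 0.00414), Tmprss6 at -0.17 (edgeR adjusted p = 0.0312), Hfe at -0.15 (edgeR adjusted p = 0.0824) and Fth1 at 0.17 (edgeR adjusted p = 0.0190). Hamp was at 1.10 to 10.8 CPM in males and 0.884 to 12.5 CPM in females, nearly the same range. Its log2 ratio was -0.02 with a 95% interval of -0.80 to 0.75 (edgeR adjusted p = 0.972), wide enough to hold a difference of more than 0.5 either way. Over the 24 fetal livers Hamp was at 5.52 ± 3.53 CPM (SD), a wider relative spread than that of Tfr2 or Tmprss6. Hamp2 and Bmp6 were too low to test. With the share of reads outside genes as a covariate, which separates fetal males from females, only 9 genes in all were called and Hamp changed sign to 0.67 (edgeR adjusted p = 0.988).

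Whether the sex difference itself differed between the stages was tested as a stage by sex interaction, for which 6 of 10 members passed an adjusted p under 0.1, against 33.7% of 13026 genes. The adult minus fetal log2 (male/female) was -3.94 for Hamp2 (SE 0.890, edgeR adjusted p = 0.000824), although it rests on 1 to 6 reads per fetal liver. Slc40a1 was at -0.40 (edgeR adjusted p = 0.00575) and Trf at -0.30 (edgeR adjusted p = 0.00265), with fetal log2 ratios of -0.04 for both. Tfr2 was at 0.28 (edgeR adjusted p = 0.00243) and Tmprss6 at 0.18 (edgeR adjusted p = 0.0892), the fetal male livers being the lower there. Tmprss6 did not pass under any of the 7 alternatives run, with adjusted p from 0.101 to 0.622. For Hamp the value was -0.94 (SE 0.415, edgeR adjusted p = 0.0878), which did not pass with DESeq2 (adjusted p = 0.102), without a filter on low counts (edgeR adjusted p = 0.131) or with the share of reads outside genes as a covariate (edgeR adjusted p = 0.295). With that covariate Hamp2 (edgeR adjusted p = 0.114) and Slc40a1 (edgeR adjusted p = 0.138) did not pass either, and Trf alone did. These comparisons share their livers with the comparisons within each stage.

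Among adult livers, Hamp was set beside its paralog, its ligand, SMAD targets and an acute phase gene, 6 correlations in all, on log2 (CPM + 0.5). Since Hamp2 separated the sexes, no pooled value is given for it. Within males its r with Hamp was 0.48 (rho = 0.48, permutation p = 0.111 and 0.115, adjusted p = 0.334 and 0.283, n = 12). Within females r was 0.11 (rho = 0.36, permutation p = 0.727 and 0.246, adjusted p = 0.910 and 0.734, n = 12).

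Bmp6 rose with Hamp over the 24 livers, with r = 0.48 (rho = 0.51, permutation p = 0.0172 and 0.0118, adjusted p = 0.0455 and 0.0236) and r = 0.44 without the 2 livers farthest from the median of Hamp. Within males r was 0.35 (adjusted permutation p = 0.514, n = 12) and within females 0.55 (adjusted permutation p = 0.396, n = 12), so that the relation did not pass within either sex. For Id1, Smad6, Saa1 and Smad7 no relation passed within either sex after adjustment, with adjusted permutation p of 0.171 or more for r and 0.165 or more for rho. Id1 had a pooled r of 0.41 (rho = 0.46, permutation p = 0.0482 and 0.0253, adjusted p = 0.0578 and 0.0379), but 0.17 within males (permutation p = 0.596, n = 12) and -4.37e-05 within females (permutation p = 0.99991, n = 12). Smad6 had a pooled r of 0.44 (rho = 0.56, permutation p = 0.0324 and 0.00563, adjusted p = 0.0486 and 0.0169), but -0.12 within males (permutation p = 0.731, n = 12) and 0.10 within females (permutation p = 0.759, n = 12). Saa1 had a pooled r of -0.36 (rho = -0.43, permutation p = 0.0807 and 0.0380, adjusted p = 0.0807 and 0.0456), but -0.10 within males (permutation p = 0.769, n = 12) and 0.28 within females (permutation p = 0.370, n = 12). Smad7 had a pooled r of 0.46 (rho = 0.38, permutation p = 0.0227 and 0.0653, adjusted p = 0.0455 and 0.0653), 0.63 within males (permutation p = 0.0286, adjusted p = 0.171, n = 12) and 0.22 within females (permutation p = 0.481, n = 12). Without the 2 livers farthest from the median of Hamp, the pooled r was 0.44 for Id1, 0.41 for Smad6, -0.29 for Saa1 and 0.26 for Smad7. With the mean of each sex removed, r was 0.0612 for Id1, -0.0638 for Smad6, -0.0122 for Saa1 and 0.41 for Smad7 and Bmp6 (adjusted permutation p = 0.124 for the last 2). By rho, Smad7 was then at 0.43 and Bmp6 at 0.48, each with an adjusted permutation p of 0.0717.

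After the mean of each sex was removed, genes whose level followed that of Hamp closely over the 24 adult livers, out of 10371, included Hpcal1 (rho = 0.70), Atxn10 (0.68), Fam36a (0.68), Gabbr2 (0.67) and Wdr60 (0.63). Bmp6 (rho = 0.48) ranked 86 and Hamp2 (rho = 0.45) 143, while Hfe2, Hfe, Tmprss6, Slc40a1, Trf and Tfr2 lay between 0.13 and -0.05 and Fth1 at -0.41 ranked 10090. These values are descriptions over livers that share depth and library effects, and carry no test.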

How the data were processed

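Libraries of ES lines and livers were made with a stranded total RNA kit, those of embryos with an amplified single-cell protocol. Per the labels and methods, reads were aligned to mm10 with TopHat2 2.0.4, Bowtie2 2.1.0 and SAMtools 0.1.18, duplicates were removed with Picard, which can lower short abundant transcripts, and HTSeq assigned reads to genes. The authors deposited the raw counts per gene, without normalization. The 5 summary rows of each file that name no gene were left out. The 10 genes and all lists were chosen with earlier results of these data known. Named genes were the members, list genes called between adult sexes (up to 12), the 4 largest called in each direction between stages, and the 6 most like Hamp. Some results under this rule are not reported here.

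Comparisons used edgeR 4.0.16 in R 4.3.3 with filterByExpr, TMM and the two-sided quasi-likelihood test, fitted over all genes. The study used DESeq2 for the sexes, an alternative here (1.42.0). Adult against fetal liver and fetal liver against ES cells had sex as a covariate. Standard errors are the absolute log2 over the square root of F. Correlations used two-sided permutation tests with 100000 resamples in Python 3.11.15 with scipy 1.17.1. The fits were tested on simulated data. Alternatives were other size factors, no filter, no fold threshold, shares of reads or alignments as covariates, and subsets of livers or ES lines. Others were a single fit of all 48 livers, Hamp and Hamp2 summed, and a replicate block. The covariate of alignments at several places, the set without male liver 11 and library totals without TMM factors were chosen after seeing the data. Detection levels cover counting error only. Positions and promoters are RefSeq's for GRCm38.p6, with Hfe2 matched as Hjv, and promoters were given for 6 of the 10 genes. Protein sequences were not used here.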

Additional observations from a re-analysis of the deposited data

Results flagged for a closer look

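In embryos 2 genes of the set were read in a lone sample. One of 6 male embryos had reads of Tfr2, 21 of them (3.23 CPM), and 1 of 6 female embryos had 28 (4.51 CPM), while the other 10 embryos had none. One of 6 male embryos had 1 read of Trf. These embryos were marked among 7 groups tested by the distance of the extreme sample from the others. In each marked group every other embryo was without a read, so even 1 read set its embryo apart. The chance rate of about 1 in 20 therefore does not apply to these groups, and no conclusion is drawn from the marks.

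The adult minus fetal log2 (male/female) passed the interaction test for 6 genes in edgeR's quasi-likelihood fit: -0.94 for Hamp, -3.94 for Hamp2, -0.40 for Slc40a1, -0.30 for Trf, 0.18 for Tmprss6 and 0.28 for Tfr2. Tmprss6 lost its call under each of the 7 alternatives run for this test, with adjusted p from 0.101 (edgeR without a filter on low counts) to 0.622 (the share of reads outside genes as a covariate).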

How the results depend on the processing

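Depth limited Bmp6 and Hamp2 most, with as few as 2 reads of Bmp6 and 1 read of Hamp2 in a liver. Without a filter on low counts, 1518 genes were called between adult sexes, 1057 between fetal sexes and 8505 between adult and fetal liver. Without a fold threshold the counts were 3400, 4807 and 11903, and 13486 for fetal liver against ES cells, with 5 members called between adult sexes, 4 between fetal sexes and 10 between liver stages. Summing Hamp and Hamp2 left 1 member called between adult sexes, by construction.

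With the share of alignments at several places as a covariate, 608 genes and 1 member were called between adult sexes, and signs turned for Bmp6 (0.23), Tmprss6 (0.0154), Tfr2 (-0.11), Fth1 (-0.0459), Saa1 (-0.40), Cebpb (-0.13) and Steap4 (-0.34), none past an adjusted p of 0.1 there. With the share of reads outside genes, 9 genes were called between fetal sexes, with turned signs for Hamp (0.67), Hfe (0.0492), Slc40a1 (0.0247) and Trf (0.19), and 989 genes and 1 member passed the interaction, where Hfe turned to -0.17. Hfe also turned to -0.0150 without the low-depth livers and -0.0144 with library totals, which turned Trf to -0.27 between liver stages. The cause was not tested.

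As residuals from the mean of each sex, r with Hamp was 0.38 for Hamp2, 0.41 for Bmp6, 0.0612 for Id1, 0.41 for Smad7, -0.0638 for Smad6 and -0.0122 for Saa1. No r had an adjusted permutation p under 0.1 (n = 24). By rho, Hamp2 (0.45), Bmp6 (0.48) and Smad7 (0.43) each had an adjusted permutation p of 0.0717, while Id1, Smad6 and Saa1 did not pass 0.1.

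Liver titles carry numbers at both stages. Over 24 same-numbered pairs the correlations of deviations ran from -0.0914 to 0.0445, with 0 over 0.1 and 1 of 24 fetal livers closest to its own number. The number thus did not track likeness of expression, and whether same-numbered animals were related was not tested. With the number as a replicate block, 5648 genes and 6 members were called between adult and fetal liver, and no member's call changed.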
